A study of Mus musculus with 12 samples.

Results

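The 10 genes described here encode the enzymes that turn arachidonic acid into prostaglandins, thromboxane and leukotrienes: Ptgs1, Ptgs2, Ptges, Ptgds, Hpgds, Tbxas1, Alox5, Alox5ap, Lta4h and Ltc4s. They were chosen by symbol from the 54532 genes of the count tables, and all 10 had enough reads to be tested. Gene expression was measured by polyA+ RNA sequencing of the striatum of C57BL/6J mice in 4 groups of 3 libraries. Sham mice had a mock operation and received PBS. Vehicle mice had transient middle cerebral artery occlusion, in which the artery feeding the striatum is blocked and then reopened, and received PBS. Mice of the SN011 arm and of the 3d-SN011 arm had the occlusion and received SN-011, which blocks STING, a protein that relays the detection of cytosolic DNA in innate immunity, and the series addresses its effect after stroke. Treatment is labelled alike in these 2 arms, and the meaning of the prefix 3d is not given. No sham or vehicle library carries the prefix, so in the 3d-SN011 arm the drug and the condition behind the prefix cannot be told apart. Age, length of occlusion and dose are not given in the labels used here. Nor do the labels tie each library to its own mouse, and the p-values therefore describe the spread between these samples only.

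Each library held 15806076 to 18622053 counted reads, and 18537 genes were tested. Replicates of a group varied most in the arms given SN-011. SN011 replicate 3 stood towards the 3d-SN011 arm, and the 3d-SN011 replicates differed widely in the summed level of meningeal fibroblast markers, led by Col1a1 and Col1a2. The summed level of 10 striatal projection neuron markers, among them Pde10a, was 9058 to 9714 CPM (read counts scaled to a common library size) in sham and 9254 to 9669 in vehicle. It was 8742, 9554 and 5341 CPM in the SN011 replicates 1 to 3 and 373, 1541 and 2261 in the 3d-SN011 replicates. All 10 markers were lower in the 3d-SN011 arm than in vehicle, beside 28.2% of all genes tested (edgeR, adjusted p under 0.05). In bulk tissue, fewer cells of a type and less RNA per cell cannot be told apart.

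Prostanoids are made in steps. A cyclooxygenase, encoded by Ptgs1 or Ptgs2, converts arachidonic acid to prostaglandin H, and a terminal synthase then makes prostaglandin E (Ptges), prostaglandin D (Ptgds or Hpgds) or thromboxane A (Tbxas1). Leukotrienes come from the same fatty acid through 5-lipoxygenase (Alox5) and its membrane partner FLAP (Alox5ap), which make leukotriene A. That product goes to leukotriene B through Lta4h or to the cysteinyl leukotrienes through Ltc4s. In the brain, Ptgs1, Hpgds and Tbxas1 are known from microglia, Ptgds from meninges, choroid plexus and oligodendrocytes, and Ptgs2 from excitatory neurons, where synaptic activity induces it.

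The 10 enzymes split into 7 that were higher in every library of the 3d-SN011 arm than in any sham or vehicle library, 1 that was high in single libraries of that arm (Ptgds) and 2 that did not share the rise (Ptgs2 and Lta4h). Between the 3d-SN011 arm and vehicle, 8 of the 10 rose and 0 fell, where 57.1% of all genes tested were called, 28.9% higher and 28.2% lower (edgeR quasi-likelihood test, adjusted p under 0.05). The median log2 fold change of the 10 was 2.51, beside 0.0093 over all genes tested. Against sham, 8 rose and 1 fell, where 57.6% of genes were called, 29.8% higher and 27.9% lower, and the median was 2.59. Between vehicle and sham 0 of 10 were called, where 0% of genes were. At an unadjusted p under 0.05 the same test gave 0 of 10 members beside 2.52% of genes, and DESeq2 also called 0 of the 10. The number of members whose groups did not overlap was 0 between vehicle and sham, where 13.2% of genes did not overlap. It was 8 between the 3d-SN011 arm and vehicle, where 59.4% did not, and 8 between that arm and sham, where 63.3% did not. Both times the 8 were the 7 that rose in every library and Lta4h, which was lower, while Ptgds overlapped. At an unadjusted p under 0.05 the 3d-SN011 arm differed in 9 of 10 from vehicle, beside 61.8% of genes, and in 9 of 10 from sham, beside 62.5%. Lta4h was among the 9 both times and was the lower one.

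**Figure D1:**
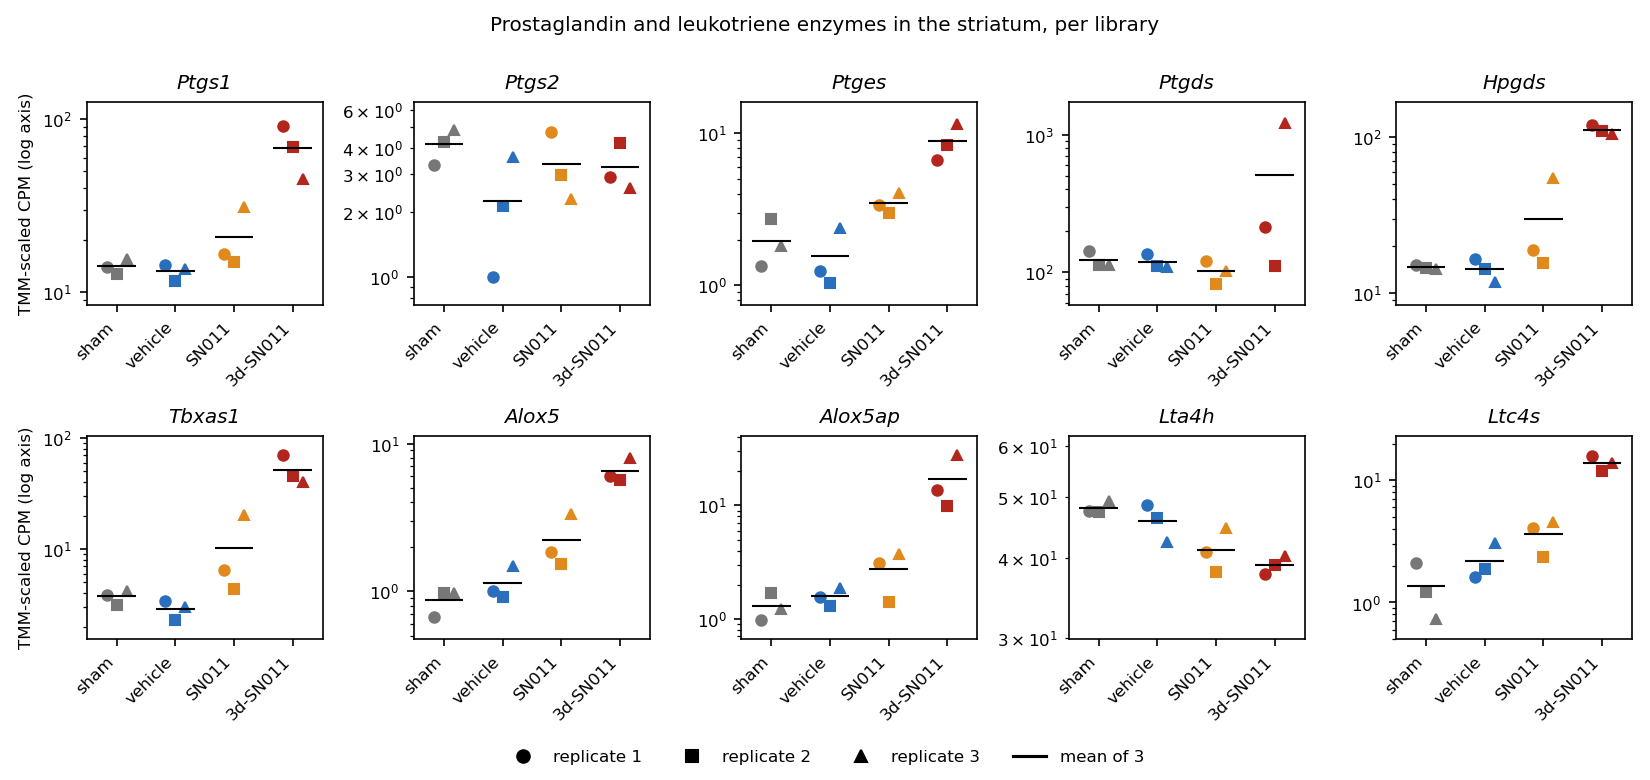
Level of each of the 10 enzymes in the 12 libraries, in TMM-scaled CPM on a log axis with its own range per gene; marker shape gives the replicate number, colour the group and the black line the mean of 3. In 7 of the panels all 3d-SN011 libraries lie above all sham and vehicle libraries, Ptgds is high mainly in 3d-SN011 replicate 3, and Ptgs2 and Lta4h show no rise.

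Per kilobase of its main messenger RNA, Ptgds was the most abundant of the 10 in sham, at 136 ± 19.95 CPM per kb (SD, n = 3), followed by Lta4h at 23.6 ± 0.509 and Ptgs1 at 4.92 ± 0.483. Hpgds stood at 4.18 ± 0.137 and Ltc4s at 2.09 ± 1.09 CPM per kb in sham, Tbxas1 at 1.89 ± 0.277 and Alox5ap at 1.03 ± 0.296. Ptgs2, Ptges and Alox5 were the lowest, at 0.930 ± 0.1699, 0.537 ± 0.194 and 0.308 ± 0.0617. Ranks depend on the length used: with all annotated exons merged, Tbxas1 has 9094 bases instead of 1990 and Lta4h 6102 instead of 2029. In the 3d-SN011 arm the order by main messenger RNA was different. Hpgds, Tbxas1, Ptgs1 and Ltc4s, at 32.2 ± 2.32, 26.1 ± 8.17, 23.9 ± 8.09 and 21.4 ± 3.08 CPM per kb, had means above that of Lta4h, at 19.2 ± 0.621, and Ptgs2 was the lowest of the 10 at 0.726 ± 0.192.

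The 2 cyclooxygenases went apart. Ptgs1, the constitutive form known as COX-1 (chromosome 2, 36230426 to 36252272 on GRCm38), stood at 14.0, 12.8 and 15.5 CPM in sham and at 14.4, 11.6 and 13.7 in vehicle. It was 16.6, 15.0 and 30.9 CPM in the SN011 replicates 1 to 3 and 91.3, 69.6 and 44.97 in the 3d-SN011 replicates. The lowest 3d-SN011 library lay above the highest SN011 library, and sham and vehicle overlapped. Ptgs1 rose by log2 2.37 (SE 0.29, edgeR adjusted p = 3.13e-05) from vehicle to the 3d-SN011 arm.

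Ptgs2, the inducible form COX-2 (chromosome 1, 150100031 to 150108227), stood at 3.34, 4.24 and 4.84 CPM in sham and at 1.00, 2.15 and 3.60 in vehicle. It was 4.74, 2.98 and 2.30 CPM in the SN011 replicates and 2.92, 4.201 and 2.59 in the 3d-SN011 replicates. All pairs of groups overlapped, and no pair was called (edgeR, adjusted p from 0.295 to 1). The log2 difference of vehicle from sham was -0.88 (SE 0.41) and that of the 3d-SN011 arm from sham was -0.35 (SE 0.40). These levels rest on 16 to 85 reads per library.

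Since Ptgs2 is also an immediate early gene of neurons, 15 other immediate early genes, among them Egr1 and Arc, were set beside it. Their median log2 fold change was 0.34 between vehicle and sham with 0 called, where Ptgs2 had -0.88. Between the 3d-SN011 arm and vehicle 9 of the 15 fell and 2 rose, beside 28.2% and 28.9% of all genes tested. The median of the 15 was -2.44, where Ptgs2 had 0.53 (SE 0.41, edgeR adjusted p = 0.295). Egr1 fell from 581 ± 73.0 to 76.0 ± 30.3 CPM and Arc from 217 ± 9.59 to 35.4 ± 20.4.

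As a ratio within each library, Ptgs1 over Ptgs2 in CPM per kb was 6.50, 4.68 and 4.99 in sham and 22.3, 8.42 and 5.91 in vehicle. It was 5.44, 7.83 and 20.9 in the SN011 replicates and 48.6, 25.7 and 27.0 in the 3d-SN011 replicates. The 3d-SN011 libraries had the 3 highest ratios of the 12. Vehicle replicate 1, with only 16 Ptgs2 reads, came next. The difference of the 3d-SN011 arm from vehicle was 1.64 on the log2 scale (exact permutation test, two-sided, p = 0.1, adjusted p = 0.225 over 9 ratios), and 0.1 is the smallest p that 3 libraries against 3 allow.

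The 250 bases before the annotated start of each cyclooxygenase gene are shown because the 2 genes catalyse the same step and differed in their levels. They are RefSeq windows on GRCm38.p6, both on the plus strand, at chr2:36230176-36230425 for Ptgs1 and chr1:150099781-150100030 for Ptgs2. Capitals mark GAGGAAG, the core bound by ETS factors such as the myeloid factor PU.1, in Ptgs1, and TTGCGCAA, the palindrome bound by C/EBP factors, in Ptgs2.
Ptgs1: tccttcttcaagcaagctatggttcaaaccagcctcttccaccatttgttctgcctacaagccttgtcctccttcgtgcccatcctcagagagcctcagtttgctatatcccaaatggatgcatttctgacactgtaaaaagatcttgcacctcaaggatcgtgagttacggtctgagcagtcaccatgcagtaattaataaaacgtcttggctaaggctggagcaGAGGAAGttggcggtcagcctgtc
Ptgs2: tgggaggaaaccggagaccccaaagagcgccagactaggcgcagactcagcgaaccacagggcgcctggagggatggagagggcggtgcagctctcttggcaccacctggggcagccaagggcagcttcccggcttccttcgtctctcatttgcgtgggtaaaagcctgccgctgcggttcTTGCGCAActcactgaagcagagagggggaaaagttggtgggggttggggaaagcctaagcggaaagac
The ETS core of Ptgs1 begins 24 bases before the start and the C/EBP palindrome of Ptgs2 begins 69 bases before it. Ptgs2 also holds a cyclic AMP response half-site, TGACGT, on the minus strand, which overlaps an E-box, CACGTG. Both lie just after the annotated start, at chr1:150100032-150100059, with the half-site in capitals.
Ptgs2 half-site: gagtcaccactACGTCAcgtggagtccg

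The 4 motifs were searched on both strands of the 300-base windows, from 250 bases before to 50 after each start, which RefSeq gives for 9 of the 10 genes. The GAGGAAG core was found in 4 of the 9, in Ptgs1, Tbxas1, Hpgds and Ltc4s, beside 13.6% of all 32851 windows. These 4 genes were among those that rose in the 3d-SN011 arm. The half-site, the E-box and the C/EBP palindrome were each found in 1 of the 9, in Ptgs2 each time, beside 7.51%, 7.15% and 0.183% of all windows. The motifs were picked with the values and sequences in view, and a match is a description of letters. The other 3 stretches with the ETS core in capitals, read along each gene's strand, lie at chr6:38918955-38918983 (plus strand, Tbxas1), chr6:65144762-65144790 (minus strand, Hpgds) and chr11:50238500-50238528 (minus strand, Ltc4s).
Tbxas1: ccctctgcttcCTTCCTCtttataaagaa
Hpgds: gcttttaggtgGAGGAAGtggcctctggc
Ltc4s: gcgccgaggctCTTCCTCtcctgggccag
In Tbxas1 and Ltc4s the core is on the opposite strand and reads CTTCCTC. The start RefSeq gives for Tbxas1 lies inside the GENCODE gene, and the stretches of Hpgds and Ltc4s lie in a GENCODE exon.

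Of the terminal prostanoid synthases, Tbxas1 had the largest change. This gene (chromosome 6, 38875404 to 39084585) makes thromboxane A, which constricts vessels and activates platelets. Tbxas1 stood at 3.88, 3.15 and 4.23 CPM in sham and at 3.37, 2.28 and 3.02 in vehicle. It was 6.41, 4.33 and 20.2 CPM in the SN011 replicates and 70.4, 45.3 and 40.0 in the 3d-SN011 replicates. Every SN011 library lay above every sham and vehicle library, and every 3d-SN011 library lay above those. From vehicle to the 3d-SN011 arm Tbxas1 rose 17.9-fold (log2 4.16, SE 0.50, edgeR adjusted p = 2.78e-05). The summed level of 6 platelet markers was 8.40 to 10.8 CPM in the 3d-SN011 arm and 3.06 to 5.15 in vehicle. Itga2b carried most of it, followed by Clec1b, and the rise was that of Itga2b, from a mean of 2.74 to 8.97 CPM. The means of Clec1b (0.686 and 0.563), Gp9 (0.426 and 0.339) and Ppbp (0.363 and 0.0494) were lower in the 3d-SN011 arm than in vehicle. Gp6 and Gp1bb had almost no reads. Of the 2 tested, 1 rose against vehicle, Itga2b, beside 28.9% of all genes tested, and both rose against sham, beside 29.8% (edgeR). The part of platelets in the Tbxas1 levels was not tested. The antisense gene Gm42962, which shares 144 exonic bases with Tbxas1, reached at most 0.563 CPM.

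Ptges, the inducible microsomal prostaglandin E synthase (chromosome 2, 30889471 to 30929863), which works with either cyclooxygenase, stood at 1.33, 2.73 and 1.81 CPM in sham and at 1.249, 1.04 and 2.38 in vehicle. It was 3.35, 2.98 and 4.05 CPM in the SN011 replicates and 6.70, 8.35 and 11.5 in the 3d-SN011 replicates. The SN011 libraries lay close together, above all sham and vehicle libraries and below all 3d-SN011 libraries. Ptges rose by log2 2.50 (SE 0.36, edgeR adjusted p = 8.68e-05) from vehicle to the 3d-SN011 arm.

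Prostaglandin D is made by 2 unrelated enzymes, and they behaved differently. Hpgds, the haematopoietic form (chromosome 6, 65117293 to 65144908), stood at 15.0, 14.5 and 14.1 CPM in sham and at 16.5, 14.3 and 11.6 in vehicle. It was 18.8, 15.5 and 55.0 CPM in the SN011 replicates and 120.8, 110.4 and 105 in the 3d-SN011 replicates. SN011 replicate 3 stood far above replicates 1 and 2, and the 3d-SN011 libraries lay close together. Hpgds rose by log2 2.99 (SE 0.38, edgeR adjusted p = 3.82e-05) from vehicle to the 3d-SN011 arm.

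Ptgds, the lipocalin-type form that also carries lipids in cerebrospinal fluid (chromosome 2, 25466709 to 25470046), stood at 144, 113 and 112 CPM in sham and at 136, 111 and 109 in vehicle. It was 120.1, 82.5 and 103 CPM in the SN011 replicates and 212, 110.5 and 1212 in the 3d-SN011 replicates. Replicate 2 of the 3d-SN011 arm lay inside the sham and vehicle range, while replicate 3 stood far above all other libraries. The call of Ptgds in the 3d-SN011 arm against vehicle (log2 2.11, SE 0.63, edgeR adjusted p = 0.0121) rested on that library. Without 3d-SN011 replicate 3 the log2 fold change was 0.44 (edgeR adjusted p = 0.134) against vehicle and 0.39 (0.182) against sham. Limma voom with sample quality weights gave 0.84 (adjusted p = 0.1001) against vehicle.

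The summed level of 10 meningeal fibroblast markers, led by Col1a1 and Col1a2, lay between 34.9 and 47.4 CPM in sham, 39.7 and 43.5 in vehicle, and 50.5 and 62.3 in the SN011 arm. In the 3d-SN011 replicates 1 to 3 it was 340, 56.1 and 767 CPM, so the libraries stood in the same order as for Ptgds. That order was not particular to fibroblast markers. Summed endothelial (674, 437 and 816 CPM), neutrophil and platelet markers shared it in the 3d-SN011 replicates, as did Alox5ap, while microglia and oligodendrocyte markers did not. Col1a1 stood at 160, 10.3 and 362 CPM there and Col1a2 at 115, 21.2 and 291. From vehicle to the 3d-SN011 arm 6 of the 10 rose and 0 fell, beside 28.9% and 28.2% of all genes tested (edgeR). Igf2, Slc22a6, Slc47a1 and Crabp2 were not called, and Slc47a1 was 0.269 CPM in 3d-SN011 replicate 3. Choroid plexus and ependyma markers, led by Ttr and Kl, summed to 256, 866 and 137 CPM in the 3d-SN011 replicates. In sham they summed to 136 to 2564 CPM, while Ptgds stayed between 112 and 144. The members of that list went both ways from vehicle to the 3d-SN011 arm: 3 rose, the ependymal genes Foxj1, Tmem212 and Ccdc153, and 6 fell (edgeR). Foxj1, a factor of ciliated cells, stood at 16.9, 20.6 and 19.2 CPM in sham and at 103.5, 63.1 and 76.8 in the 3d-SN011 replicates. Oligodendrocyte markers, led by Mbp, summed to 24700, 15904 and 18702 CPM in the 3d-SN011 replicates and to 9699 to 12378 in sham. The part of these cells in the Ptgds levels was not tested.

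**Figure D2:**
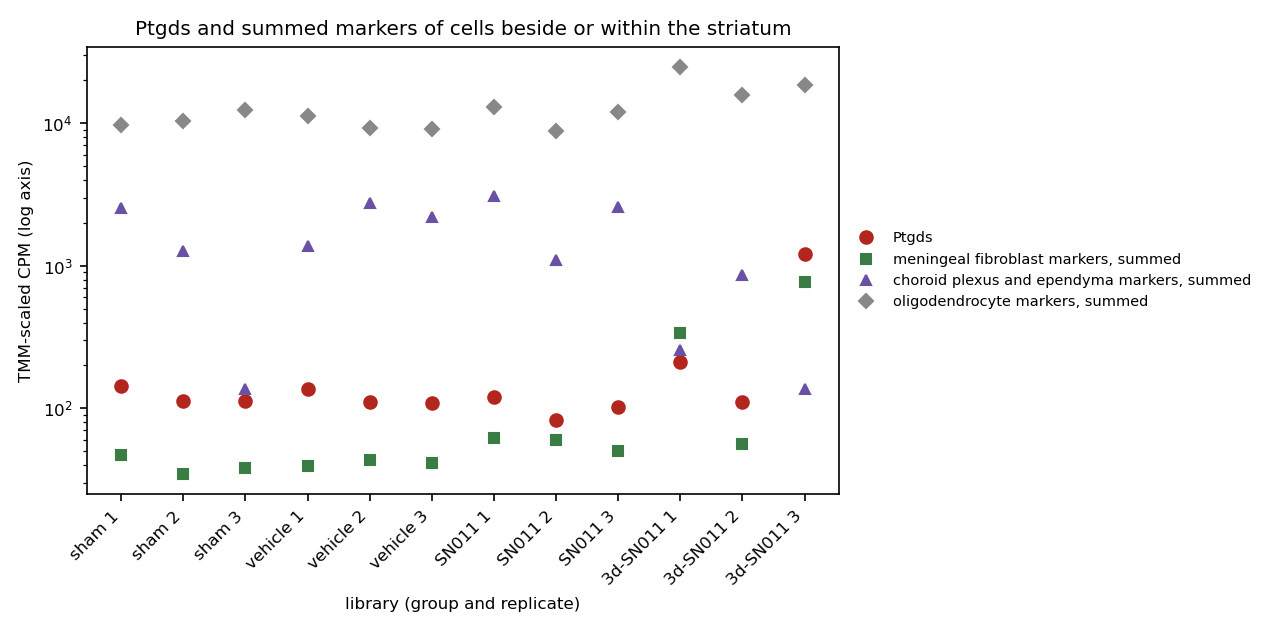
Ptgds and the summed level of 3 marker lists in each of the 12 libraries, in TMM-scaled CPM on a log axis. Ptgds and the sum of meningeal fibroblast markers are both highest in 3d-SN011 replicate 3, at 1212 and 767 CPM, and most of that sum is Col1a1 and Col1a2. The sum of choroid plexus and ependyma markers, most of it Ttr in the libraries where it is high, is 137 CPM there.

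The ratio of Ptgds to Hpgds, in CPM per kb, was 36.9, 30.02 and 30.8 in sham and 31.8, 30.1 and 36.0 in vehicle. It was 24.6, 20.5 and 7.21 in the SN011 replicates and 6.76, 3.86 and 44.6 in the 3d-SN011 replicates. The sham and vehicle libraries overlapped, all SN011 libraries lay below them, and the 3d-SN011 libraries lay on both sides. The log2 difference of the 3d-SN011 arm from vehicle was -1.63 (exact permutation test, two-sided, p = 0.4, adjusted p = 0.72 over 9 ratios).

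**Figure D3:**
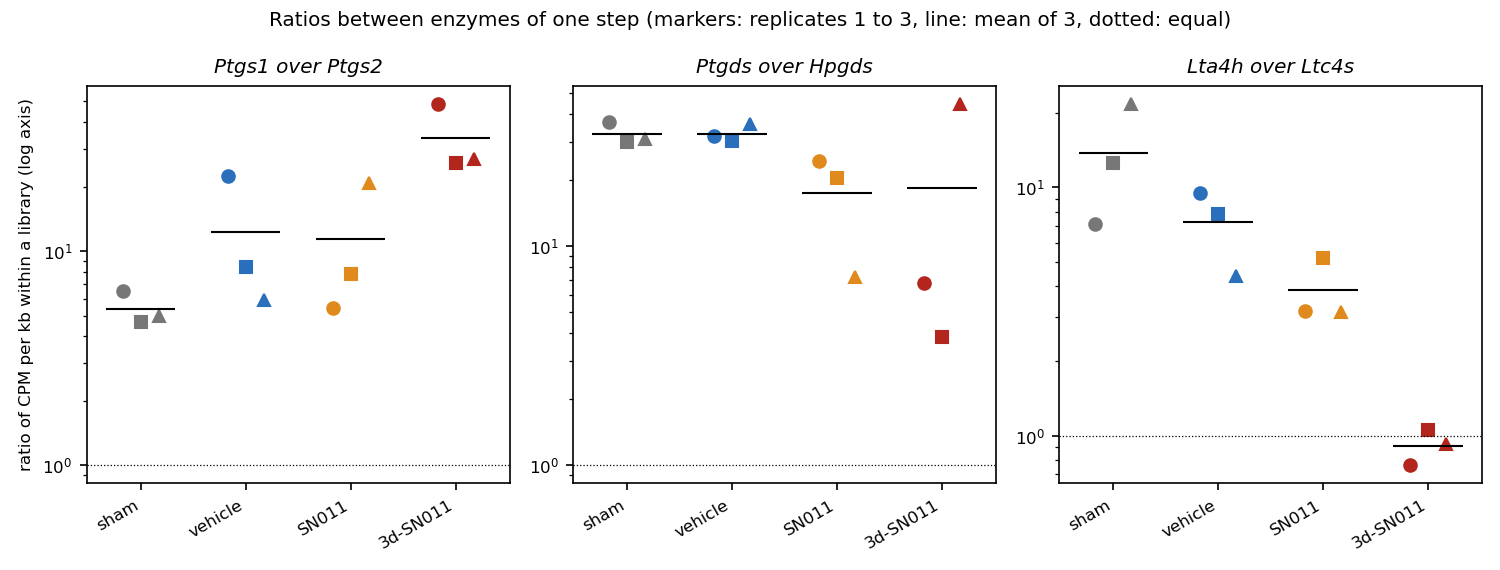
Ratio of 2 enzymes that use the same substrate in each library, as CPM per kb over CPM per kb on a log axis; marker shape gives the replicate, the line the mean of 3 and the dotted line a ratio of 1. Ptgs1 over Ptgs2 is highest in the 3d-SN011 libraries, Ptgds over Hpgds splits them, and Lta4h over Ltc4s is lowest in them, between 0.761 and 1.05.

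On the leukotriene side, 3 of the 4 genes rose in the 3d-SN011 arm and Lta4h did not. Alox5, or 5-lipoxygenase (chromosome 6, 116410077 to 116461178), starts the pathway. It stood at 0.667, 0.970 and 0.968 CPM in sham and at 1.00, 0.911 and 1.48 in vehicle. It was 1.85, 1.52 and 3.34 CPM in the SN011 replicates and 6.04, 5.63 and 7.97 in the 3d-SN011 replicates. The SN011 libraries lay between the vehicle and the 3d-SN011 libraries without overlap. Alox5 rose by log2 2.53 (SE 0.34, edgeR adjusted p = 6.26e-05) from vehicle to the 3d-SN011 arm.

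Alox5ap (chromosome 5, 149264767 to 149288153), which presents arachidonic acid to 5-lipoxygenase, stood at 0.971, 1.70 and 1.21 CPM in sham and at 1.56, 1.30 and 1.87 in vehicle. It was 3.12, 1.40 and 3.73 CPM in the SN011 replicates and 13.7, 9.84 and 27.8 in the 3d-SN011 replicates. SN011 replicate 2 lay within the vehicle range, and 3d-SN011 replicate 3 had the highest level. Alox5ap rose 10.8-fold (log2 3.43, SE 0.44, edgeR adjusted p = 4.30e-05) from vehicle to the 3d-SN011 arm.

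Ltc4s (chromosome 11, 50236461 to 50238616), which joins leukotriene A to glutathione, stood at 2.12, 1.21 and 0.726 CPM in sham and at 1.62, 1.89 and 3.09 in vehicle. It was 4.10, 2.34 and 4.55 CPM in the SN011 replicates and 15.9, 11.9 and 14.0 in the 3d-SN011 replicates. All SN011 libraries lay above all sham libraries, but they overlapped vehicle. Ltc4s rose by log2 2.66 (SE 0.37, edgeR adjusted p = 6.91e-05) from vehicle to the 3d-SN011 arm. The antisense gene Gm26542 shares 268 exonic bases with Ltc4s and reached at most 1.99 CPM, and with no strand setting given for the counting, reads of the pair cannot be told apart.

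Lta4h (chromosome 10, 93453411 to 93484875), the hydrolase that makes leukotriene B and is also an aminopeptidase found in many cell types, varied least. It stood at 47.4, 47.3 and 49.2 CPM in sham, 48.4, 46.3 and 42.5 in vehicle, 41.0, 38.1 and 44.6 in the SN011 replicates and 37.8, 39.1 and 40.3 in the 3d-SN011 replicates. Sham and the 3d-SN011 arm did not overlap. Lta4h fell by 0.30 on the log2 scale from sham to the 3d-SN011 arm (SE 0.098, edgeR adjusted p = 0.0203), a 1.23-fold difference. That call was lost without sham replicate 3 (edgeR adjusted p = 0.0663), without 3d-SN011 replicate 1 (0.0554) and without a filter on low counts (0.103). Against vehicle the difference was -0.23 (SE 0.098, edgeR adjusted p = 0.0636).

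In the 3d-SN011 arm the transcripts of the 2 enzymes that compete for leukotriene A stood at similar levels per length of the longest principal transcript. With all annotated exons merged, Lta4h has 6102 bases instead of 2029 and Ltc4s 1014 instead of 649, so the size of the ratio depends on the length used. Lta4h over Ltc4s in CPM per kb was 7.15, 12.5 and 21.7 in sham, 9.53, 7.85 and 4.40 in vehicle, 3.19, 5.21 and 3.14 in the SN011 replicates and 0.761, 1.05 and 0.924 in the 3d-SN011 replicates. The 3d-SN011 libraries had the 3 lowest ratios of the 12, and the SN011 and vehicle libraries overlapped. The log2 difference of the 3d-SN011 arm from vehicle was -2.93 (exact permutation test, two-sided, p = 0.1, adjusted p = 0.225 over 9 ratios).

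The comparison of the SN011 arm with vehicle asks how the drug altered these enzymes after the occlusion, and 0 of the 10 passed the test, where 0.0162% of genes did, 0.0108% higher and 0.00539% lower (edgeR). At an unadjusted p under 0.05 the same test gave 5 of 10, all higher, beside 11.1% of all genes. The 5 were Tbxas1, with a log2 difference of 1.83 (SE 0.48, edgeR adjusted p = 0.177), Ptges with 1.15 (SE 0.36, 0.241), Hpgds with 1.08 (SE 0.36, 0.277), Alox5 with 0.98 (SE 0.35, 0.300) and Ptgs1 with 0.65 (SE 0.28, 0.419). The median of the 10 was 0.77, beside -0.0077 over all genes. In 4 genes, Tbxas1, Ptges, Alox5 and Ptgs1, the SN011 and vehicle libraries did not overlap, beside 16.3% of all genes. DESeq2 called 1 of the 10, Tbxas1 (adjusted p = 0.00525), and limma voom with sample quality weights called Ptges (0.0311) and Ptgs2 (0.0356).

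SN011 replicate 3 carried much of the difference for Hpgds, Tbxas1 and Ptgs1, which are known from microglia, and part of that for Alox5. Without it the log2 difference from vehicle was 0.28 for Hpgds, 0.89 for Tbxas1, 0.26 for Ptgs1 and 0.57 for Alox5, while that of Ptges was 1.02. Summed microglia markers stood at 681, 515 and 1616 CPM in the SN011 replicates 1 to 3 and at 411 to 456 in vehicle. The part of microglia in these differences was not tested. Against sham 0 of 10 were called, where 0.113% of genes were (edgeR), and 7 reached an unadjusted p under 0.05, beside 12.8% of genes. The libraries did not overlap for 6 of 10, beside 25.6% of genes. Lta4h was in both counts and was the lower one, at log2 -0.22, and the others were higher. Of those 7, Alox5 and Ltc4s had the smallest adjusted p, 0.122 and 0.127 (edgeR), at log2 differences of 1.36 (SE 0.36) and 1.43 (SE 0.38).

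**Figure D4:**
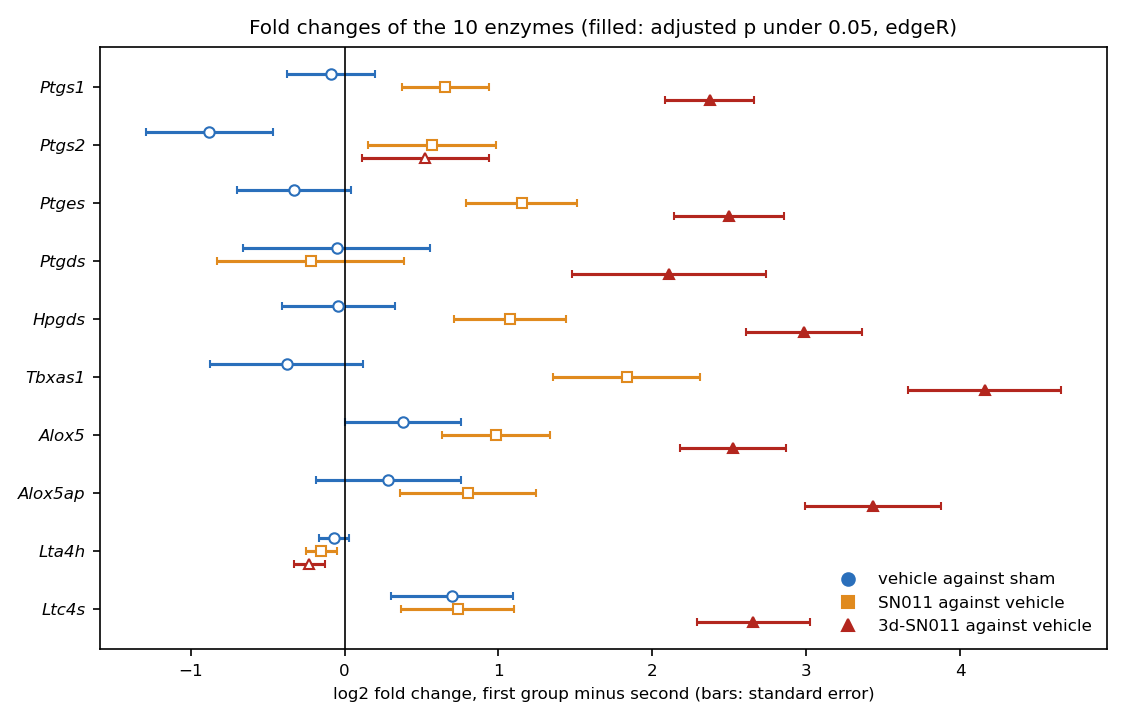
Log2 fold changes of the 10 enzymes in 3 comparisons, with bars of 1 standard error and filled symbols where edgeR gave an adjusted p under 0.05. The 8 filled symbols all belong to the 3d-SN011 arm against vehicle; comparisons with vehicle share the vehicle libraries.

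Between the 2 arms given SN-011, 8 of the 10 enzymes were higher in the 3d-SN011 arm and 0 were lower, where 46.4% of all genes were called, 23.6% higher and 22.9% lower (edgeR). The libraries did not overlap for 7 of 10, beside 50.3% of genes, and 8 of 10 reached an unadjusted p under 0.05, beside 54% of genes. The largest difference was that of Alox5ap, at log2 2.63 (SE 0.42, adjusted p = 0.000435), and the smallest of the 8 was that of Ptges, at 1.35 (SE 0.33, 0.00551). Without SN011 replicate 3 the differences of Hpgds and Tbxas1 went from 1.91 and 2.33 to 2.70 and 3.26, and without 3d-SN011 replicate 3 that of Ptgds went from 2.33 to 0.66. Ptgs2 and Lta4h differed between the arms by -0.044 (SE 0.40) and -0.078 (SE 0.098), with adjusted p of 0.938 and 0.540 (edgeR). The 3d-SN011 arm had the highest mean of the 4 groups for 8 genes, and its difference from the next group was called for each. No other step in the order of means was called for any of the 10.

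Microglia markers rose with the enzymes. The summed level of 10 of them, led by Csf1r, was 445 to 473 CPM in sham, 411 to 456 in vehicle and 3854, 3469 and 2213 in the 3d-SN011 replicates. All 10 were called higher in the 3d-SN011 arm than in vehicle, beside 28.9% of all genes tested, with a median log2 fold change of 2.87 (edgeR). Not every library shared this: Siglech was 16.7 CPM in 3d-SN011 replicate 3, below the 20.4, 18.9 and 19.6 of the vehicle replicates. Set against that sum within each library, Hpgds lay between 3.05% and 3.26% in sham and between 2.56% and 4.01% in vehicle, between 2.76% and 3.41% in the SN011 arm, and at 3.13%, 3.18% and 4.74% in the 3d-SN011 replicates. Its level relative to microglia markers thus overlapped in all groups.

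Tbxas1 and Ptgs1 moved in opposite directions on that scale, but the direction of each can depend on the markers summed. From vehicle to the 3d-SN011 arm the log2 fold changes of the markers ranged from 1.63 (Siglech) to 4.66 (Trem2) (edgeR). Ptgs1 rose by 2.37, more than Siglech, P2ry12 (1.88) and Sall1 (2.00) and less than the other markers. Tbxas1 rose by 4.16, less than Trem2 and more than the other markers. Tbxas1 was 0.551% to 0.821% of the microglia sum in vehicle and 1.83%, 1.31% and 1.81% in the 3d-SN011 replicates, with no overlap. Ptgs1 was 2.82% to 3.50% in vehicle and 2.37%, 2.01% and 2.03% in the 3d-SN011 replicates, again with no overlap. Alox5, Alox5ap and Ltc4s overlapped between the 3d-SN011 arm and vehicle, and within the 3d-SN011 arm each was highest in replicate 3, at 0.360%, 1.26% and 0.630%. In these 6 exact permutation tests, two-sided, p was 0.1 for Tbxas1 and Ptgs1 and at least 0.6 for the other 4, and no adjusted p over the 9 ratios was under 0.225.

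**Figure D5:**
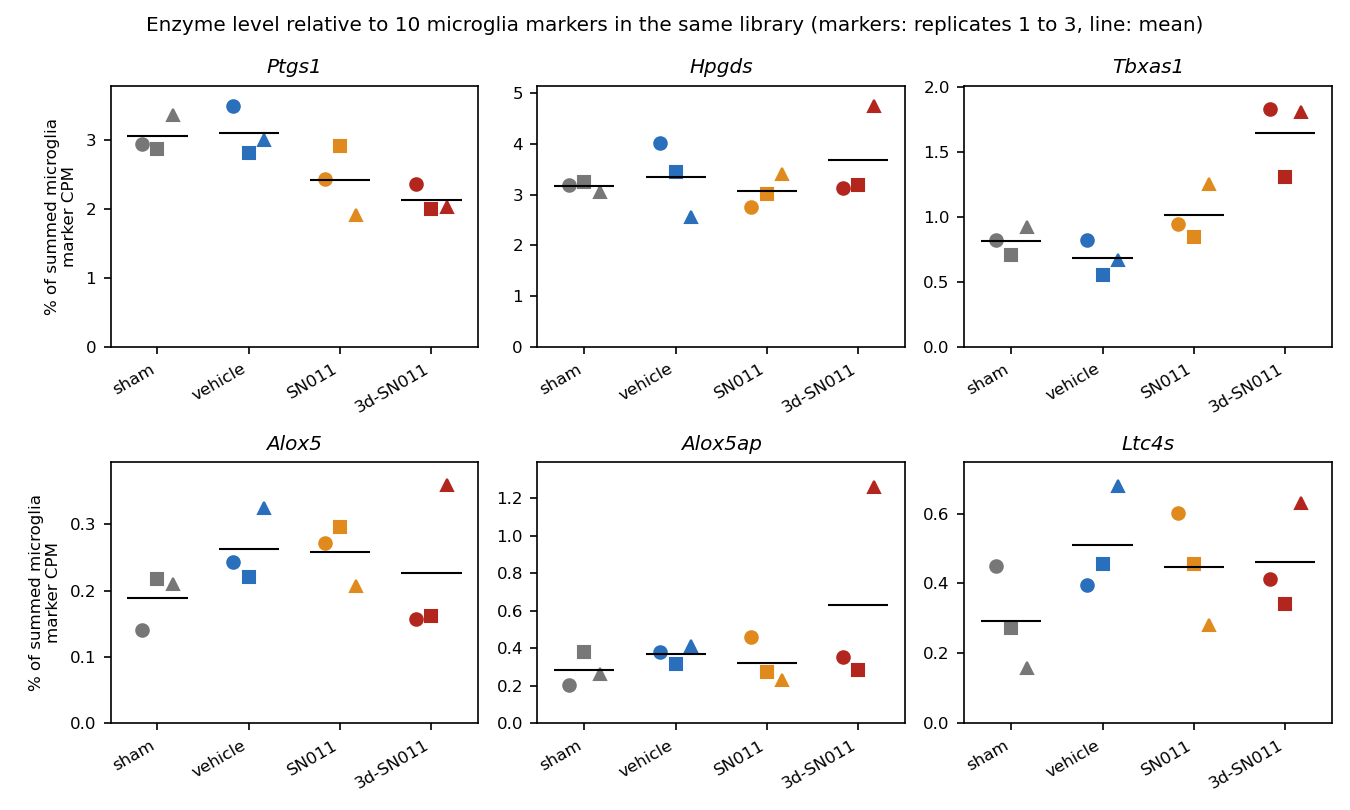
CPM of 6 enzymes as a percentage of the summed CPM of 10 microglia markers in the same library, on linear axes from 0; marker shape gives the replicate and the line the mean of 3. Hpgds overlaps in all groups, Tbxas1 is higher in the 3d-SN011 libraries than in vehicle and Ptgs1 is lower.

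Other cells known for these enzymes were checked by their markers. For scale, 28.9% of all genes tested rose and 28.2% fell from vehicle to the 3d-SN011 arm (edgeR). Monocyte and border macrophage markers, led by Lyz2 and Cd163, summed to 28.8 to 34.4 CPM in vehicle and to 1107, 359 and 879 in the 3d-SN011 replicates. Lyz2 alone made up most of the sums in the 3d-SN011 replicates, at 1052, 333 and 808 CPM. Of the 9 tested 7 rose and 1, Cd163, fell, from a mean of 16.1 to 2.83 CPM (edgeR). Neutrophil markers, led by Mmp8 and S100a8, summed to 0.606 to 1.21 CPM in sham, 0.772 to 1.82 in vehicle, 0.658 to 1.17 in the SN011 arm and 3.71 to 7.11 in the 3d-SN011 arm, which did not overlap the others. From vehicle to the 3d-SN011 arm the mean of Mmp8 went from 0.0423 to 2.64 CPM and that of S100a8 from 0.169 to 1.12. Those of S100a9 (0.512 and 0.475) and Ngp (0.366 and 0.308) were lower in the 3d-SN011 arm, and no other neutrophil gene had a group mean above 0.252. Only 1 of these 9, S100a9, had enough reads to be tested, and it was not called. The mast cell genes Mcpt4 and Tpsab1 had no read in any library, and the mast cell sum was carried by Kit and Hdc, which neurons also express. That sum was 57.8 to 70.3 CPM in vehicle and 26.1 to 39.5 in the 3d-SN011 arm, where Kit fell from 57.0 ± 7.20 to 20.3 ± 7.79 CPM and Hdc rose from 4.98 ± 0.807 to 12.8 ± 3.86 (edgeR adjusted p = 0.000167 and 0.000874). Of the astrocyte markers, led by Slc1a2 and Slc1a3, 6 of 8 rose and 0 fell from vehicle to the 3d-SN011 arm, and of the endothelial markers, led by Slc2a1 and Flt1, 5 of 8 rose and 0 fell. Their part in the enzyme levels was not tested.

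The genes most like each enzyme were found by the smallest root mean square difference in log2 CPM over the 12 libraries, each gene centred on its own mean, among 14091 genes. For Ptgs1 they were Myo1e (0.116), Dtx4 (0.155) and Plxdc2 (0.162), and for Hpgds Msn (0.165), Ecscr (0.1701) and Abcb1b (0.180). Those of Tbxas1 were Laptm5 (0.212), Cd37 (0.237) and Havcr2 (0.255). Alox5 was nearest to Pnpla7 (0.118), Nectin2 (0.161) and Castor1 (0.172), and Alox5ap to Tcirg1 (0.280), Maff (0.285) and Lgmn (0.290). Ltc4s was nearest to H2-DMb1 (0.287), Gpsm3 (0.301) and Slc37a2 (0.308), and Ptges to Fkbp10 (0.258), Zfp703 (0.260) and Nbl1 (0.280). For these 7 enzymes the distance to the nearest gene was at most 0.287, while the enzymes themselves varied by 0.985 to 1.68 (root mean square around the mean).

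The nearest genes of the other 3 enzymes had other profiles. Ptgds was nearest to Arrdc2 (0.306), Il20rb (0.315) and Ddit4 (0.380), and Lta4h to Prpf6 (0.0560), Ccdc25 (0.0675) and Tmem126a (0.0682). Ptgs2 had no close match: Adra1d (0.349), Cacna2d4 (0.408) and Hrh1 (0.418) came nearest, beside its own variation of 0.576. Among the 10 enzymes the closest pair was Ptges and Alox5, at 0.354, followed by Ptgs1 and Hpgds at 0.397.

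Other genes of the pathway went both ways in the 3d-SN011 arm, as did all genes tested. Of all genes, 28.9% were called higher and 28.2% lower than in vehicle (edgeR), and the counts below stand beside these shares. Of 13 phospholipases and other sources of arachidonic acid tested, 6 rose and 1 fell from vehicle to the 3d-SN011 arm, with a median log2 fold change of 0.63 (edgeR). The 2 diacylglycerol lipases, which make the endocannabinoid 2-arachidonoylglycerol, went opposite ways. Daglb rose from 24.8 ± 2.13 to 60.3 ± 7.47 CPM (edgeR adjusted p = 1.78e-05) and Dagla fell from 146 ± 14.9 to 50.1 ± 4.84 (1.83e-05). Pla2g15, the lysosomal phospholipase, rose from 23.96 ± 3.18 to 76.9 ± 21.7 CPM (5.52e-05).

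Of the 10 other genes of prostanoid synthesis and breakdown, 4 rose and 0 fell, beside 28.9% and 28.2% of all genes tested. The median of the 10 was 0.24. The other synthases were not among them: Ptges2 stood at 20.5 ± 2.10 and 18.6 ± 2.07 CPM and Ptges3 at 76.7 ± 6.45 and 84.5 ± 14.4 in vehicle and the 3d-SN011 arm (2 genes chosen after their values were seen). The genes with the smallest adjusted p take part in breakdown and export. Ptgr1, a reductase that inactivates prostaglandins and leukotriene B, rose from 1.09 ± 0.240 to 8.31 ± 1.92 CPM (edgeR adjusted p = 1.59e-05). The dehydrogenase Hpgd rose from 6.92 ± 0.853 to 38.4 ± 21.1 CPM (0.000508) and the exporter Abcc4 from 20.2 ± 1.35 to 37.2 ± 2.66 (9.22e-05).

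Of 9 other lipoxygenase and leukotriene genes tested, 4 rose and 1 fell, beside 28.9% and 28.2% of all genes tested. The median of the 9 was -0.019. Cyp4f18, which inactivates leukotriene B, rose from 0.643 ± 0.327 to 14.0 ± 7.80 CPM (edgeR adjusted p = 0.000124). Ggt5, which cleaves leukotriene C, rose from 3.19 ± 0.547 to 11.1 ± 5.44 CPM (0.000339) and the glutathione transferase Mgst2 from 0.127 ± 0.0616 to 1.39 ± 0.858 (0.000342). Among 6 prostanoid receptors tested 1 rose and 0 fell. It was Ptger4, the EP4 receptor of prostaglandin E, from 0.981 ± 0.110 to 12.1 ± 5.05 CPM (6.15e-05). Ptgfr stood at 0.232 ± 0.156 and 0.670 ± 0.0975 CPM and Ptger3 at 0.622 ± 0.300 and 0.245 ± 0.209, neither of them called (edgeR adjusted p = 0.0701 and 0.0909).

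Of 6 leukotriene and lipoxin receptors tested, 3 rose and 1 fell, beside 28.9% and 28.2% of all genes tested. The cysteinyl leukotriene receptor Cysltr1 rose from 1.74 ± 0.220 to 4.9996 ± 1.99 CPM (edgeR adjusted p = 0.0164) and Gpr17, a receptor of oligodendrocyte precursors, from 65.3 ± 9.19 to 130.0 ± 70.0 (0.0193). The leukotriene B receptor Ltb4r2 rose from 0.0633 ± 0.0625 to 0.903 ± 0.222 CPM (0.00117). In the SN011 arm against vehicle, and in vehicle against sham, 0 genes of these 5 pathway lists were called (edgeR).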

How the data were processed

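Each library has 1 deposited table of counts, in whole reads per Ensembl gene ID. Per the submitters' processing notes, the authors aligned to mm10 (HISAT2) and counted with featureCounts. Their versions, the annotation and the strand setting are nowhere stated in the labels. Symbols came from the reference gene names (54409 of 54532 IDs matched), positions and lengths from GENCODE M21 (GRCm38) and promoter windows from RefSeq (GRCm38.p6, 9 of 10 members matched).

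The tests ran in edgeR 4.0.16 under R 4.3.3: low genes removed by group (filterByExpr, minimum count 10), TMM scaling, 1 quasi-likelihood fit of the 12 libraries with group as the only term, 6 comparisons, and a Benjamini-Hochberg adjusted p under 0.05 over the 18537 genes tested. Standard errors are the log2 fold change over the root of F. Levels are TMM-scaled CPM, and CPM per kb divides by the longest principal transcript. The fit was run on simulated counts in which a small set of genes with many reads changed in a single group. That setting does not cover genes with few reads, outlying libraries or changes in most genes. Between replicates of a group, chi-square divided by its degrees of freedom was 4.79 to 78.2, so no pair looked like repeats of 1 library; this does not show that they came from separate mice.

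The members and the 17 pathway and marker lists were chosen with earlier results of these data known. Named were all members, the 3 genes of each pathway list with the smallest adjusted p in the 3d-SN011 arm against vehicle, the 2 most abundant of each marker list (some of these are not reported here), with Mcpt4, Tpsab1, Foxj1, Tmem212 and Ccdc153 added after their values were seen, and the 3 genes most like each member, with a mean of at least 1 CPM and log2 CPM taken with a prior count of 2. Alternatives were RLE scaling, DESeq2 1.42.0, limma 3.58.1 voom with quality weights, no filter, 6 libraries only, a replicate block and leaving out each replicate; a fit of 9 libraries without the 3d-SN011 arm was added after seeing the data. Figures used matplotlib 3.10.9.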

Additional observations from a re-analysis of the deposited data

How the results depend on the processing

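The counts of enzymes called in the 3d-SN011 arm kept within 1.5 times of the values given under all alternatives: 7 to 9 against vehicle and 8 to 9 against sham when 1 replicate was left out, and 8 against the SN011 arm. For the SN011 arm against vehicle the count of 0 became 1 with DESeq2, 2 with limma voom, 2 without a filter and 0 to 2 when 1 replicate was left out, the 2 being Hpgds and Tbxas1 without SN011 replicate 2. Against sham it became 3, 3, 4 and 0 to 4 in the same order. Over all genes, the 3 calls of the SN011 arm against vehicle became 446, 1179, 601 and, without SN011 replicate 2, 513, and the 21 against sham became 624, 1875, 775 and 694. Replicate numbers did not pair the samples (correlations of same-numbered deviations from -0.293 to 0.143), and the fit with a replicate block called 0, 0, 0, 8, 9 and 8 enzymes in the 6 comparisons, as without it.

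Of 750 values of single enzymes under an alternative, 710 kept direction and side of the threshold, 22 gained a call, 10 lost one, all of Ptgds or Lta4h, and 8 turned sign, none of them called. Between vehicle and sham, limma voom gave 0.059 for Ptgds and 0.061 for Hpgds, and leaving out 1 replicate gave -0.16 to 0.075 and -0.17 to 0.080. For Ptgs2 between the 2 SN-011 arms it gave -0.28 to 0.29. The levels of Ptgs2, Ptges, Tbxas1, Alox5, Alox5ap and Ltc4s in sham rest on 11 to 80 reads per library; whether depth limited their tests was not tested.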
